A study of Mus musculus with 32 samples.

Results

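Prl8a2, Tacr3, Cttnbp2, Nxpe4 and Tigd3 are 5 transcripts that were close to 0 in most embryos of 1 group and present in most embryos of the other. They were chosen by name, out of the 34223 genes of the deposited table, because of that contrast. The difference between the groups is therefore described for them with no test, and tests are given only within a group. The libraries are mRNA profiles of single wild-type mouse embryos, taken late in the 2-cell stage at 28 h after IVF (in vitro fertilization). In the 16 Val_LNA embryos, H3.3-GFP mRNA (a histone tagged with green fluorescent protein) had been injected with an antisense oligonucleotide containing locked nucleic acid (LNA). Its target was tRFValCAC, a piece of valine transfer RNA that the series title describes as enriched in sperm. In the 16 Ctrl_LNA embryos the same mRNA was injected with a scrambled LNA oligonucleotide, so both groups carry an LNA and the fluorescent histone. The sources used here do not give strain, parents or injection days, and each embryo is treated as 1 replicate, so that spread and p-values are those between these embryos. The amount of the transfer RNA fragment was not analysed here.

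The mouse embryo replaces its inherited maternal RNA with its own transcripts around the 2-cell stage, and many genes are transcribed only briefly at that stage. The 5 transcripts come from unrelated families. Prl8a2 encodes decidual prolactin-related protein, a secreted member of the prolactin family, which rodents have expanded into a cluster of hormones made mainly by placenta and decidua. Tacr3 encodes the neurokinin 3 receptor, a G protein-coupled receptor for neurokinin B that is best known from the neurons controlling gonadotropin-releasing hormone. Cttnbp2 encodes a protein that binds cortactin and the striatin phosphatase and kinase complex and is known from dendritic spines of neurons. Nxpe4 belongs to the neurexophilin and PC-esterase domain family, and no role is given for it here. Tigd3 is a gene derived from a Tigger DNA transposase, related to Cenpb and Jrk.

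All 5 are annotated as protein coding, on 5 different chromosomes of the mouse assembly GRCm38 (GENCODE M21). Prl8a2 lies on the plus strand of chromosome 13 (27345673 to 27354216), within the prolactin cluster. Tacr3 lies on the plus strand of chromosome 3 (134829007 to 134934579) and Cttnbp2 on the minus strand of chromosome 6 (18366478 to 18514843). Nxpe4 lies on the plus strand of chromosome 9 (48162023 to 48400025) and spans Nxpe2 on the opposite strand. Tigd3 lies on the minus strand of chromosome 19 (5891138 to 5894149). The library protocol does not mark strand, so reads of Nxpe4 and Nxpe2, or of Cttnbp2 and an antisense transcript inside it, cannot be told apart where their exons overlap.

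The RefSeq table of promoter sequences (GRCm38.p6) matched 4 of the 5 genes by symbol. The 250 bases before each RefSeq start are shown because the genes were chosen by the same group contrast, Tigd3 in the opposite direction, and lie on different chromosomes. The windows are chr3:134828757-134829006 on the plus strand for Tacr3, chr6:18514870-18515119 on the minus strand for Cttnbp2, chr9:48361791-48362040 on the plus strand for Nxpe4 and chr19:5894129-5894378 on the minus strand for Tigd3. Each is printed 5′ to 3′ on the strand of its gene. Capitals mark matches to 4 motifs, looked for on both strands. These were the box known as TATAAA, the box known as CCAAT, the core GGATTA that Otx and Obox homeodomains bind, and the sequence TGATT that is part of the site bound by Dux.
Tacr3: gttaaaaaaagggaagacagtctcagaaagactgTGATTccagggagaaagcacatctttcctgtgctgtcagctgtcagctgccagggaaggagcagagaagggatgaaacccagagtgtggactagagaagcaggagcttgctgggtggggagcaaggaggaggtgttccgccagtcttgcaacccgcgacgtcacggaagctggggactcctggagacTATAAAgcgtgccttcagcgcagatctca
Cttnbp2: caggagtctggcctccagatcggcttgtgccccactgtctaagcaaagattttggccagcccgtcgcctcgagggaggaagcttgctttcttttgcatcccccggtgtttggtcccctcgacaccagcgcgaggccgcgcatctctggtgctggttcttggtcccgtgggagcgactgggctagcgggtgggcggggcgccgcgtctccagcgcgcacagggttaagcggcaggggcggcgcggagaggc
Nxpe4: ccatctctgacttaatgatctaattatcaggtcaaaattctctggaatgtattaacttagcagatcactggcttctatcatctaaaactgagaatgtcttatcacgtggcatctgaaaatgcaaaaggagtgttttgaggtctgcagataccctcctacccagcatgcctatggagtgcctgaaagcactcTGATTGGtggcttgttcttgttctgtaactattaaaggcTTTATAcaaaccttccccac
Tigd3: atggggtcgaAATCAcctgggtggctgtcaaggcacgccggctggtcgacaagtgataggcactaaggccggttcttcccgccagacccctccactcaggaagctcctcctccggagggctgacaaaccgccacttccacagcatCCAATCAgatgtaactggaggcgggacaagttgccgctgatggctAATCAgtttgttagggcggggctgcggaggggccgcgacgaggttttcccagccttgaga
The 4 windows did not share a motif. TATAAA was found before Tacr3, with its first base 29 bases before the start, and before Nxpe4, on the opposite strand with its first base at 20, against 12.97% of the 27025 RefSeq promoter windows of the same length. TGATT was found once before Tacr3 (at 216), once before Nxpe4 (at 59) and 3 times before Tigd3 (at 240, 103 and 60), against 34.4% of all windows. CCAAT was found once before Nxpe4 (at 57, overlapping TGATT) and once before Tigd3 (at 105, overlapping TGATT), against 34.5% of all windows. GGATTA, present in 6.38% of all windows, was found in none of the 4, and the Cttnbp2 window held none of the 4 motifs. The number of CpG dinucleotides was 7 before Tacr3, 23 before Cttnbp2, 1 before Nxpe4 and 15 before Tigd3, beside a median of 6 over all windows. The RefSeq start of Nxpe4 lies inside the longer GENCODE gene, and the last 21 bases of the Tigd3 window fall in a GENCODE exon of the gene.

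Values are normalised read counts, which the authors made by dividing the reads of each gene by a size factor for each embryo. Recovered reads totalled 2592925 to 6259870 per embryo, and 16687 to 20200 genes were detected in 31 embryos. Ctrl_LNA 48, with 5122089 reads, had 7276 genes detected and stands apart from all other embryos. It was at 0 for all 5 transcripts, and results that rest on it are given with and without it. A transcript was counted as detected at any value above 0, and as on at a normalised count of at least 10, which is 5.83 to 16.4 reads depending on the embryo. A value of 0 allows up to 3 reads, or 1.82 to 5.15 normalised counts. These limits cover counting error only, since the protocol mentions no molecular identifiers and PCR copies then count as reads. In such bulk libraries of 1 embryo, fewer cells reading a gene and less RNA per cell cannot be told apart. Of the listed genes with a row, 28 of 28 zygotic and 27 of 28 maternal ones passed the filter for testing, beside 15559 of all 34223 genes. Both lists passed, so this does not tell one stage from another.

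Prl8a2 was present in every Val_LNA embryo and nearly absent from Ctrl_LNA embryos. The Val_LNA embryos had a lowest value of 10.05, a median of 83.2 and a highest value of 393.92 normalised counts, while the Ctrl_LNA embryos had a lowest value of 0, a median of 0 and a highest value of 39.44. It was detected in 16 of 16 Val_LNA embryos and 6 of 16 Ctrl_LNA embryos, and it was on in 16 and 2 embryos of these groups. Among the 15559 genes that passed the filter (a normalised count of at least 10 in at least 8 embryos), 0.482% were on in at least 8 more Val_LNA embryos than Ctrl_LNA embryos. Prl8a2, chosen for this contrast, had the largest such difference, 14 embryos. The mean was 149 ± 136 in Val_LNA embryos and 5.11 ± 11.9 in Ctrl_LNA embryos (SD, n = 16 each), a ratio of means of 29.2. The 2 Ctrl_LNA embryos in which it was on, 49 and 44, had 39.4 and 29.9 normalised counts, and Ctrl_LNA 47 followed with 8.99. Values within the Val_LNA group spread widely, and 12 of its 16 embryos lay above the highest Ctrl_LNA embryo.

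Tacr3 was the most abundant of the 5 by read count in Val_LNA embryos, and it was read in part of the Ctrl_LNA embryos as well. Its normalised counts had a lowest value of 32.74, a median of 289 and a highest value of 578.32 in Val_LNA embryos, against 0, 9.27 and 120.37 in Ctrl_LNA embryos. It was on in 16 of 16 Val_LNA embryos and 7 of 16 Ctrl_LNA embryos, and it was detected in 16 and 10 embryos. The mean was 291 ± 177 in Val_LNA embryos and 25.5 ± 37.2 in Ctrl_LNA embryos (SD, n = 16 each), a ratio of 11.4. The groups overlap: 4 Ctrl_LNA embryos lay above the lowest Val_LNA embryo, and 12 Val_LNA embryos lay above the highest Ctrl_LNA embryo.

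Cttnbp2 was on in 15 of 16 Val_LNA embryos and 6 of 16 Ctrl_LNA embryos. The Val_LNA embryos had a lowest value of 0, in Val_LNA 5, a median of 70.2 and a highest value of 354.26 normalised counts, against 0, 2.62 and 54.43 in Ctrl_LNA embryos. The mean was 98.7 ± 87.3 in Val_LNA embryos and 11.6 ± 16.99 in Ctrl_LNA embryos (SD, n = 16 each), a ratio of 8.52. Leaving aside Val_LNA 5, all Val_LNA embryos were above the Ctrl_LNA median, and 11 were above the highest Ctrl_LNA embryo.

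Nxpe4 had the least complete pattern of the 4 transcripts that were higher in Val_LNA embryos. Its normalised counts had a lowest value of 2.75, a median of 90.4 and a highest value of 214.72 in Val_LNA embryos, against 0, 6.02 and 113.27 in Ctrl_LNA embryos. It was on in 13 of 16 Val_LNA embryos and 4 of 16 Ctrl_LNA embryos, but it was detected at some level in 16 and 13 embryos, so its contrast lies in the level more than in detection. The mean was 97.3 ± 72.7 in Val_LNA embryos and 14.6 ± 27.8 in Ctrl_LNA embryos (SD, n = 16 each), a ratio of 6.65. A single Ctrl_LNA embryo, 47, carried 113 normalised counts, and 6 Val_LNA embryos lay above it. Val_LNA 1, 8 and 14 were off with 2.75, 6.07 and 6.23.

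Tigd3 showed the opposite pattern. It was at 0 in 14 of 16 Val_LNA embryos, and the other 2, Val_LNA 5 and 18, had 3.55 and 0.80 normalised counts, which are 4 reads and 1 read. In Ctrl_LNA embryos it had a lowest value of 0, in Ctrl_LNA 48, a median of 39.2 and a highest value of 126.38. It was on in 0 of 16 Val_LNA embryos, with an exact 95% interval up to 20.6% of embryos, and in 13 of 16 Ctrl_LNA embryos, with an interval of 54.4% to 96.0% (Clopper-Pearson). Of all tested genes, 0.36% were on in at least 8 fewer Val_LNA embryos, and Tigd3, chosen for this contrast, had the largest such difference, 13 embryos. The mean was 0.272 ± 0.897 in Val_LNA embryos and 47.4 ± 39.7 in Ctrl_LNA embryos (SD, n = 16 each). The ranges overlap at the bottom, since Ctrl_LNA 36 had 0.90 and Ctrl_LNA 48 had 0.

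**Figure D1:**
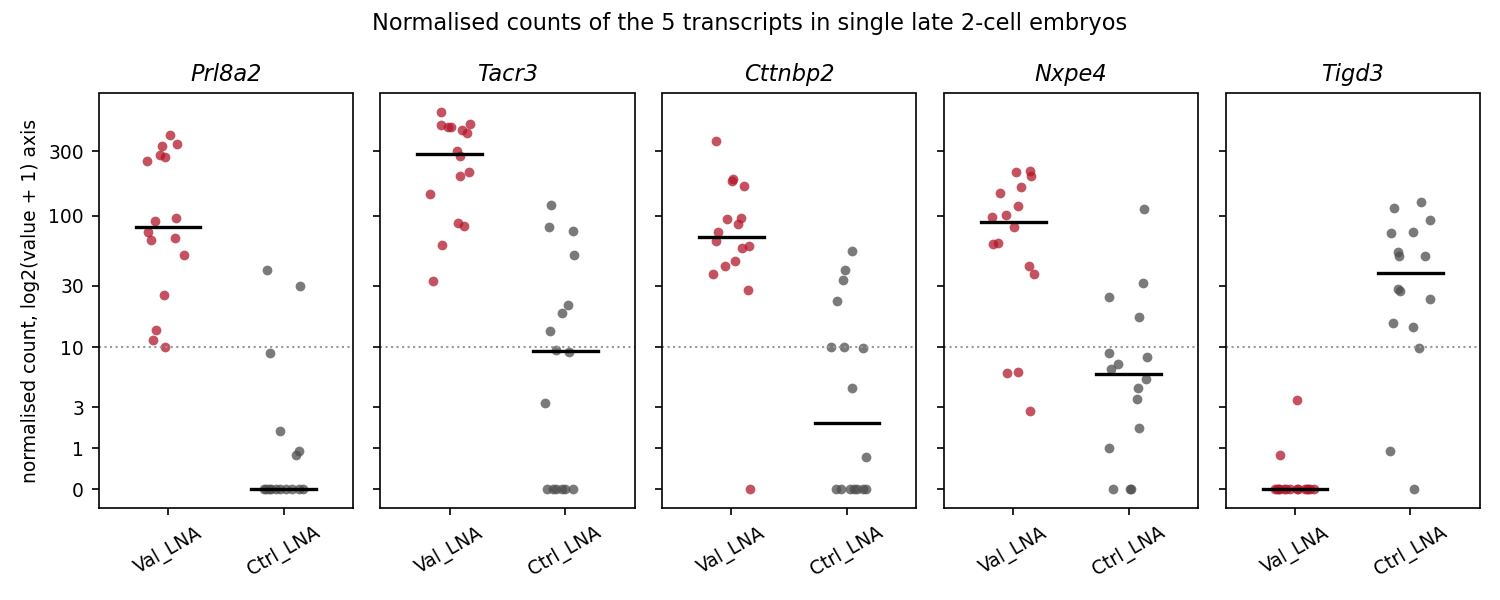
Each point is 1 embryo, the vertical axis is the normalised count on a log2(value + 1) axis, black bars are medians of the log2 values, and the dotted line marks 10 normalised counts, the line between off and on. Prl8a2 and Tacr3 were above the line in all 16 Val_LNA embryos, and Tigd3 was below it in all 16, while every transcript had overlapping ranges in the Val_LNA and Ctrl_LNA groups.

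On the scale of differences in mean log2(normalised count + 1), Val_LNA minus Ctrl_LNA, Prl8a2 stood at 5.37 ± 0.63, Tacr3 at 4.88 ± 0.71, Cttnbp2 at 3.83 ± 0.72, Nxpe4 at 3.22 ± 0.66 and Tigd3 at -4.61 ± 0.54 (limma estimate and SE, n = 16 each). The pseudocount sets much of the size for transcripts this close to 0: with a pseudocount of 10 the Tigd3 difference was -2.10 and the Prl8a2 difference was 2.99. Across the same fit, limma called 0.881% of the 15559 genes higher in Val_LNA embryos and 1.31% lower (adjusted p under 0.05), and nothing is read from the position of the 5 in it. These 137 higher and 204 lower genes became 245 and 409 without Ctrl_LNA 48. They became 61 and 300 when embryos were centred on their median gene, a scaling that moved the median log2 difference of all tested genes to -0.19, against 0.26 as deposited, and left the signs of the 5 as they were. All 5 passed the filter, each through the group where it is high. Levels between genes are compared per kilobase of exon. On that scale of mean normalised counts per kilobase, Prl8a2 had 159 in Val_LNA embryos and 5.44 in Ctrl_LNA embryos, Tacr3 had 77.4 and 6.78, Nxpe4 had 16.5 and 2.48, and Cttnbp2 had 11.2 and 1.31 in these groups. Tigd3 had 0.126 in Val_LNA embryos and 21.96 in Ctrl_LNA embryos. Per length, then, Prl8a2 was the most abundant of the 5 where it was on, and Cttnbp2 the least.

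Detection alone ranks the 5 differently. By the number of embryos with any read, Val_LNA minus Ctrl_LNA, Prl8a2 differed by 10 embryos, and 7 of the 34223 genes, itself included, differed by at least as much in that direction. Tacr3 and Cttnbp2 each differed by 6 embryos, and 330 genes differed by at least as much. Nxpe4 differed by 3 embryos, and 3049 genes differed by at least as much. Tigd3 differed by -13 embryos, and it was the only gene that far in its direction. With model and clone names left out, the genes outside the 5 with the largest differences in detection were the olfactory receptor gene Olfr1358, detected in 12 Val_LNA embryos and 1 Ctrl_LNA embryo, and the zinc finger gene Zfp184, detected in 15 and 5, followed by Efhd1os (12 and 2), Gbgt1 (12 and 2) and Hist1h2bg (13 and 3). In the other direction, Wipf1, which encodes a partner of the actin regulator WASP, was detected in 3 Val_LNA embryos and 14 Ctrl_LNA embryos, and Rhbdl1 in 1 and 12. Galk1 (5 and 15), Ankle1 (5 and 15) and Zfp462 (0 and 10) followed.

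Read embryo by embryo as on and off states, the Val_LNA group was close to uniform and the Ctrl_LNA group was graded. Levels in Val_LNA embryos were not uniform, with ranges of 10.05 to 393.92 for Prl8a2 and 32.74 to 578.32 for Tacr3. At 50 or more counts, Prl8a2 was present in 12 of 16 Val_LNA embryos and Tacr3 in 15. Cttnbp2 and Nxpe4 were each present in 11 at that threshold. The transcripts were chosen by the group contrast, so the near-uniform states are a description only. Of the 4 transcripts Prl8a2, Tacr3, Cttnbp2 and Nxpe4, 12 Val_LNA embryos had all 4 on and the other 4 had 3 on. In 3 of these 4 embryos (Val_LNA 1, 8 and 14) Nxpe4 was off, and in Val_LNA 5 it was Cttnbp2. Val_LNA 5 is also the embryo with the most Tigd3 reads of its group, and its Prl8a2 value of 11.5 is the second lowest of the group, yet it carried 299 normalised counts of Tacr3 and 102 of Nxpe4. Among Ctrl_LNA embryos, 6 had none of the 4 on, 5 had 1, 2 had 2, 2 had 3, and 1 had all 4.

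Ctrl_LNA embryos held several combinations of the transcripts. The 5 embryos with 1 transcript on had Tacr3 (3 embryos) or Cttnbp2 (2 embryos). Ctrl_LNA 35 had Cttnbp2 and Nxpe4, and Ctrl_LNA 50 had Tacr3 and Nxpe4. The embryos richest in these transcripts were Ctrl_LNA 44, 47 and 49, with 120, 82.7 and 77.6 normalised counts of Tacr3, and 54.4, 39.6 and 33.2 of Cttnbp2. These 3 embryos also held the 3 highest Ctrl_LNA values of Prl8a2.

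Within the Ctrl_LNA group Tigd3 was not off where the other transcripts were on. It was on in all 10 Ctrl_LNA embryos that had at least 1 of the other 4 on, and Ctrl_LNA 44, 47 and 49 carried 28.4, 53.9 and 93.3 normalised counts of it. The 3 Ctrl_LNA embryos with Tigd3 off (34, 36 and 48) had none of the other 4 on. So no Ctrl_LNA embryo had the state seen in 12 Val_LNA embryos, with all 4 transcripts on and Tigd3 off. The line at 10 is arbitrary: of the 80 values in each group, 2 in Val_LNA embryos and 9 in Ctrl_LNA embryos lay between 8 and 12, among them the Cttnbp2 values of Ctrl_LNA 36 (9.93), 37 (10.03) and 45 (10.09) and the Tigd3 value of Ctrl_LNA 34 (9.90).

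**Figure D2:**
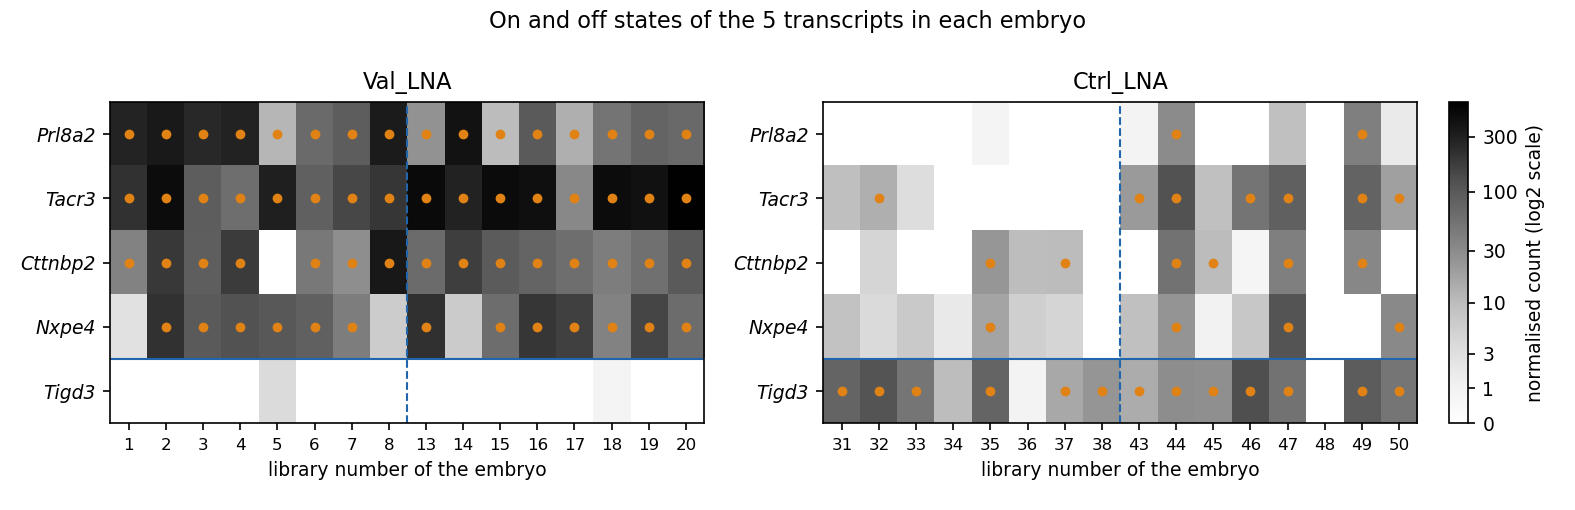
Each column is 1 embryo by library number, each row a transcript, the grey scale is the normalised count on a log2 scale, orange dots mark embryos in which the transcript was on (at least 10 normalised counts), the blue line sets Tigd3 apart, and the dashed line separates the lower and upper runs of library numbers. In 12 Val_LNA embryos and in no Ctrl_LNA embryo, 4 dots stand above an empty Tigd3 row, for transcripts chosen by this contrast.

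Whether the transcripts switch together was asked within each group, since the contrast of the groups chose them. For each of the 10 pairs, on and off states were compared by Fisher's exact test (two-sided) where each transcript was on in at least 2 and off in at least 2 embryos. No Val_LNA pair could be tested, because Prl8a2 and Tacr3 were on and Tigd3 was off in all 16 embryos, and Cttnbp2 was off in 1. In the Ctrl_LNA group all 10 pairs met this rule, and none passed. Several of these tables could not have passed. Prl8a2 with Tacr3 or Cttnbp2, and Tigd3 with each of the other transcripts, already had the most overlap their counts allow. Their p was still 0.125 or higher (Fisher's exact test), so for these pairs the test cannot decide on joint switching. The smallest p was 0.118, for Cttnbp2 and Nxpe4, which were both on in 3 embryos and both off in 9, and the lowest adjusted p over the 10 exact tests was 0.436. Prl8a2 was on in 2 embryos, and both also had Tacr3 and Cttnbp2 on.

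Levels were compared pair by pair as well. Over the 20 relations (10 pairs in 2 groups) of log2(normalised count + 1), tested by permutation with 100000 resamples (two-sided) and adjusted together, 2 passed by Pearson correlation, both among Ctrl_LNA embryos. Prl8a2 and Tacr3 had r = 0.694 (permutation p = 0.00051, adjusted p = 0.0102) and Spearman rho = 0.688 (permutation p = 0.00487, adjusted p = 0.0974). Without the 2 embryos farthest from the median of Prl8a2, r was 0.544 (permutation p = 0.0185, adjusted p = 0.123), so that the call depends on those embryos. They were Ctrl_LNA 44 and 49, the only ones with Prl8a2 on. Prl8a2 was off in all that remained, at most 8.99 in Ctrl_LNA 47, so the remaining coefficient does not show joint switching. Without Ctrl_LNA 48 r was 0.688 (permutation test, adjusted p = 0.0280). Prl8a2 and Cttnbp2 had r = 0.663 (permutation p = 0.00279, adjusted p = 0.0279) and rho = 0.515 (permutation p = 0.0430, adjusted p = 0.172). Without the same 2 embryos r was 0.430 (permutation p = 0.113, adjusted p = 0.376), so this call depends on them too, and the same limit holds. Without Ctrl_LNA 48 r was 0.653 (permutation test, adjusted p = 0.0412). By Spearman's rho none of the 20 relations passed.

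Among Val_LNA embryos no relation passed. Prl8a2 and Cttnbp2 came nearest among the positive ones, with r = 0.572 and rho = 0.544 (permutation test, adjusted p = 0.0620 and 0.172). Prl8a2 and Tacr3, related among Ctrl_LNA embryos, had r = -0.0887 and rho = -0.250 among Val_LNA embryos (permutation test, adjusted p = 0.863 and 0.540); the difference between the groups was not tested. Cttnbp2 and Tigd3 had r = -0.846 among Val_LNA embryos (permutation test, adjusted p = 0.0645), which rests on Val_LNA 5: without the 2 embryos farthest from the median r was -0.273 (adjusted p = 0.780). Tacr3 and Tigd3, which move in opposite directions between the groups, had r = 0.570 and rho = 0.535 among Ctrl_LNA embryos (permutation test, adjusted p = 0.0733 and 0.172).

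**Figure D3:**
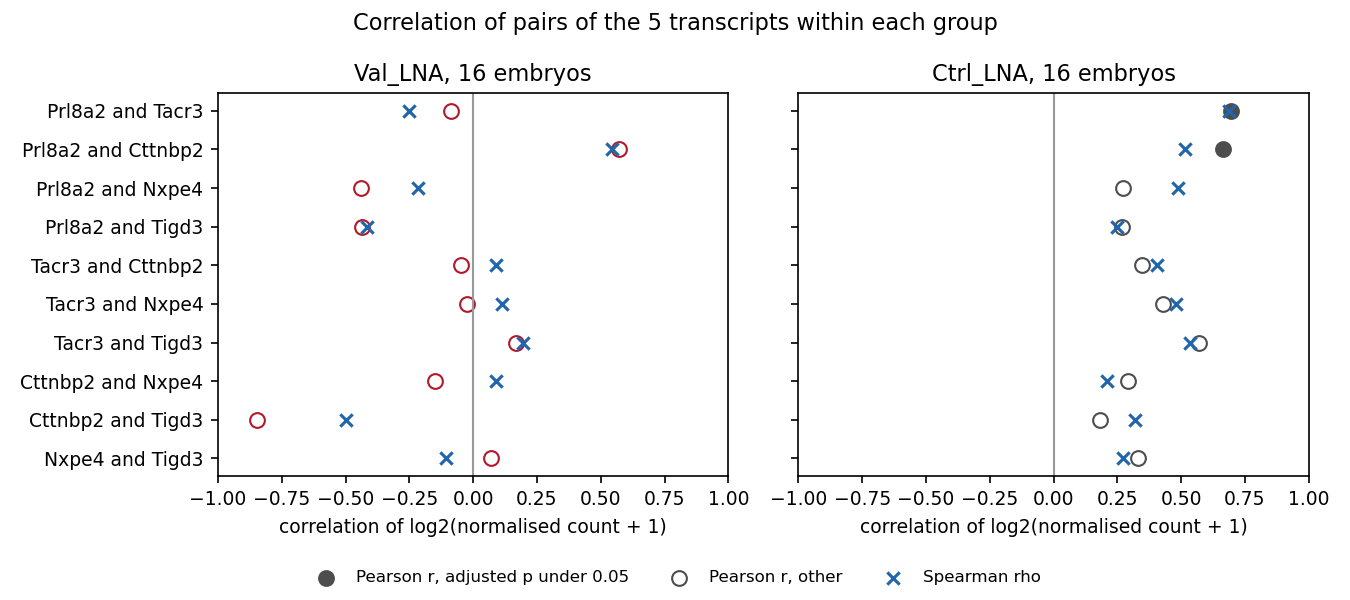
Each row is a pair of transcripts, and the horizontal axis is the correlation of their log2(normalised count + 1) over the 16 embryos of 1 group, with circles for Pearson r (filled where the adjusted permutation p was under 0.05) and crosses for Spearman rho. The filled circles are Prl8a2 with Tacr3 (0.694) and Prl8a2 with Cttnbp2 (0.663) among Ctrl_LNA embryos, and no Val_LNA pair is filled.

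The levels were also set beside 3 measures of the whole embryo in each group: log2 total reads, genes detected, and the mean level of the zygotic list minus that of the maternal list. None of the 30 relations passed adjustment (lowest adjusted permutation p = 0.523 by Pearson r and 0.853 by Spearman rho). The largest Pearson coefficients were those of Tigd3 with genes detected among Ctrl_LNA embryos (r = 0.635, rho = 0.179), Prl8a2 with genes detected among Val_LNA embryos (r = 0.513, rho = 0.385) and Nxpe4 with total reads among Ctrl_LNA embryos (r = -0.494, rho = -0.555), each with an adjusted p of 0.523 for r (permutation test). The coefficient of Tigd3 rests on Ctrl_LNA 48: without that embryo r was 0.124 and rho 0.0036, and without the 2 embryos farthest from the median r was 0.246. That of Prl8a2 was 0.265 without the 2 farthest embryos, and that of Nxpe4 was -0.580. The difference between zygotic and maternal lists itself had medians of -0.75 in Val_LNA embryos and -0.72 in Ctrl_LNA embryos on the log2 scale, and limma called 0 of the 28 zygotic and 0 of the 27 maternal genes tested between the groups (6 and 4 at an unadjusted p under 0.05). DESeq2 called 3 and 0 of them, and edgeR 0 of either list.

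Library numbers in the labels fall into an upper and a lower unbroken run in each group (13 to 20 and 1 to 8 in Val_LNA, 43 to 50 and 31 to 38 in Ctrl_LNA), 8 embryos each, and the labels do not say what the runs are. Among Ctrl_LNA embryos the on states of Tacr3 and Prl8a2 were uneven between the runs, though neither passed in the main limma fit given below. Tacr3 was on in 6 of 8 Ctrl_LNA embryos of the upper run and 1 of 8 of the lower run, with means of 47.7 ± 42.6 and 3.29 ± 5.31 normalised counts (SD, n = 8 each). Both Ctrl_LNA embryos with Prl8a2 on, and all 3 with at least 3 of the 4 transcripts on, belong to the upper run. The Prl8a2 means were 10.1 ± 15.7 in the upper and 0.0988 ± 0.279 in the lower run (SD, n = 8 each).

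In limma, with the 4 combinations of group and run in 1 fit, the upper minus lower difference among Ctrl_LNA embryos was 3.51 ± 0.81 on the log2 scale for Tacr3 (adjusted p = 0.136) and 1.89 ± 0.82 for Prl8a2 (adjusted p = 0.332). Without Ctrl_LNA 48, which belongs to the upper run, the Tacr3 difference was 4.18 ± 0.70 and passed in limma (adjusted p = 0.0159). In edgeR, on recovered reads, Prl8a2 passed (5.66, adjusted p = 0.0495) and Tacr3 did not (4.03, adjusted p = 0.0602). Over all tested genes, limma called 0.00643% between the Ctrl_LNA runs, a single gene, Rffl, which was named after its value was seen. Of the 15559 tested genes, limma called 4 without Ctrl_LNA 48, and edgeR called 14. Cttnbp2, Nxpe4 and Tigd3 did not pass between the Ctrl_LNA runs, with differences of 0.82, 0.59 and 0.07 (limma, adjusted p = 0.693, 0.768 and 0.972).

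Between the Val_LNA runs limma called 0.0% of the tested genes, with 641 at an unadjusted p under 0.05, and edgeR called 0. The Tacr3 mean was 390 ± 167 in the upper and 192 ± 131 in the lower Val_LNA run, and the Prl8a2 mean was 91.9 ± 126 in the upper and 206 ± 129 in the lower run (SD, n = 8 each). Their differences were 0.99 ± 0.81 and -1.48 ± 0.82 on the log2 scale (limma, adjusted p = 0.999 for both). The group difference within a run kept its direction for all 5 transcripts: Prl8a2 differed by 3.68 between Val_LNA and Ctrl_LNA embryos of the upper runs and by 7.05 in the lower runs, Tacr3 by 3.62 and 6.14, Cttnbp2 by 3.70 and 3.96, Nxpe4 by 3.27 and 3.16, and Tigd3 by -4.72 and -4.49 (log2 scale, described with no test). In the lower runs Prl8a2 ranged over 11.54 to 341.3 in Val_LNA embryos and 0 to 0.79 in Ctrl_LNA embryos. Tacr3 ranged there over 60.6 to 451.07 and 0 to 13.54. In the upper runs both overlapped, with highest Ctrl_LNA values of 39.44 and 120.37 and lowest Val_LNA values of 10.05 and 32.74. All 5 were chosen by the group contrast, so kept directions and separate ranges are a description only. The share of all tested genes with separate ranges was not computed. A test of whether the group difference itself differed between runs called no gene (limma, 808 at an unadjusted p under 0.05; edgeR, 677), and Prl8a2 had an adjusted p of 0.817 in limma.

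**Figure D4:**
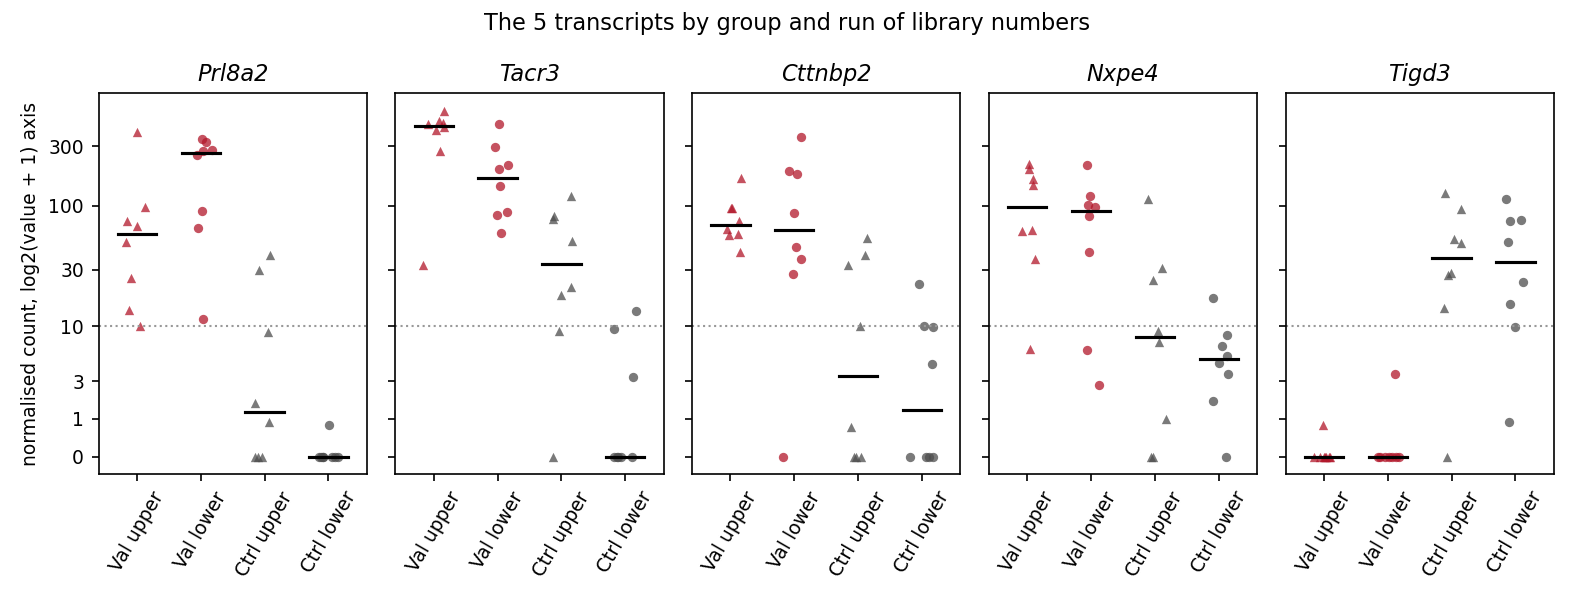
Each point is 1 embryo, grouped by injected oligonucleotide and by the upper or lower run of library numbers, on a log2(value + 1) axis of normalised counts, with black bars at the medians of the log2 values and a dotted line at 10. Among Ctrl_LNA embryos Tacr3 was on in 6 of 8 in the upper run and 1 of 8 in the lower run, while Tigd3 was on in 7 of 8 and 6 of 8.

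Centring each embryo on its run took away part of the relation of Prl8a2 and Tacr3 among Ctrl_LNA embryos (r = 0.533, permutation test, adjusted p = 0.118). Among Val_LNA embryos Prl8a2 and Cttnbp2 passed in that setting, with r = 0.716 and rho = 0.653 (permutation test, adjusted p = 0.0104 and 0.0483). Among Ctrl_LNA embryos the same pair passed there with r = 0.679 and rho = 0.794 (permutation test, adjusted p = 0.0104 and 0.0062). When Ctrl_LNA 48 was left out as well, its r was 0.639 and no longer passed, while its rho of 0.799 did (permutation test, adjusted p = 0.0587 and 0.0072). Tacr3 and Tigd3 among Ctrl_LNA embryos also passed there (r = 0.767, permutation test, adjusted p = 0.0080), but not when Ctrl_LNA 48 was left out as well (r = 0.578, adjusted p = 0.111). Among Val_LNA embryos, run centring also let Cttnbp2 and Tigd3 pass by r (-0.842, permutation test, adjusted p = 0.0104). By rho the pair did not pass (-0.451, permutation test, adjusted p = 0.277). Tigd3 was at 0 in 14 of these 16 embryos, and Val_LNA 5 had the highest Tigd3 and the lowest Cttnbp2 value.

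Most listed partners of Cttnbp2 and relatives of Tigd3 were abundant enough to test, unlike most relatives and partners of Prl8a2, Tacr3 and Nxpe4. From these lists limma called 1 gene, beside 0.881% higher and 1.31% lower over all tested genes. Of the prolactin genes other than Prl8a2 and their receptor, 15 had a row, 1 passed the filter and 0 were called (limma with Benjamini-Hochberg adjustment over all tested genes; 0 at an unadjusted p under 0.05, and 0 in edgeR or DESeq2). The one tested was Prlr, the prolactin receptor, at 335 ± 172 normalised counts in Val_LNA embryos and 242 ± 115 in Ctrl_LNA embryos (SD, n = 16 each; limma, adjusted p = 0.558). None of the prolactin genes next to Prl8a2 in the cluster passed the filter. Prl6a1 was detected in 0 Val_LNA embryos and 1 Ctrl_LNA embryo, Prl3d3 in 1 and 1, Prl8a6 in 2 and 0, and Prl8a1 in 1 and 0. Prl7b1, the farthest of them at 248 kb, was detected in 5 Val_LNA embryos and 6 Ctrl_LNA embryos and on in 3 and 4, with means of 5.24 ± 10.7 and 6.32 ± 11.2 normalised counts (SD, n = 16 each). Trophoblast is the lineage in which prolactin genes are best known. Its 9 listed markers with a row summed to 449 to 1009 normalised counts in Val_LNA embryos and 531 to 2723 in Ctrl_LNA embryos. The ranges overlapped, with medians of 627 and 904, and a relation to Prl8a2 was not tested.

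Of 11 rows for tachykinins, their receptors and the kisspeptin and gonadotropin-releasing hormone genes, 3 were tested and 0 were called (limma; 0 at an unadjusted p under 0.05, and 0 in edgeR or DESeq2). Tac2, which encodes the ligand of the Tacr3 receptor, had medians of 49.8 normalised counts in Val_LNA embryos and 19.2 in Ctrl_LNA embryos (log2 difference 0.88 ± 0.61, limma, adjusted p = 0.491). Gnrh1 had the smallest p of this list, with medians of 142 and 94.9 in these groups (limma, adjusted p = 0.457). Of 20 rows for the striatin phosphatase and kinase complex and cortactin, the partners of Cttnbp2, 18 were tested and 0 were called in limma (3 at an unadjusted p under 0.05), 0 in edgeR and 1 in DESeq2. The last was Strn, the striatin gene, named after its values were seen, with a log2 difference of 0.66 ± 0.27 (limma, adjusted p = 0.241; DESeq2, adjusted p = 0.00139). The smallest limma p was that of Ppp2ca, a catalytic subunit of protein phosphatase 2A, at 118 ± 71.6 normalised counts in Val_LNA embryos and 62.1 ± 40.5 in Ctrl_LNA embryos (SD, n = 16 each; limma, adjusted p = 0.193). The median log2 difference of the 18 was 0.59, beside 0.26 over all tested genes. Such a shift was not particular to this list. The median was 0.80 for the 3 tested genes of the tachykinin list and 0.36 for the 13 tested genes derived from transposases. It was 0.76 for the zygotic list and 0.79 for the maternal list. Without Ctrl_LNA 48 the median over all tested genes was 0.068, and these medians were not tested.

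None of the 8 rows for neurexophilins and NXPE proteins other than Nxpe4 passed the filter. Both relatives next to Nxpe4 were low: Nxpe1-ps, a pseudogene 18.3 kb away, was detected in 11 Val_LNA embryos and 3 Ctrl_LNA embryos with a highest value of 9.76, and Nxpe2, on the opposite strand within Nxpe4, in 8 and 3. Whether reads of Nxpe4 were counted for these relatives was not tested. Of 18 genes derived from transposases other than Tigd3, 13 were tested, 0 were called higher and 1 was called lower. This was Jrk, detected in 2 Val_LNA embryos and 11 Ctrl_LNA embryos, with a log2 difference of -2.92 ± 0.81 (limma, adjusted p = 0.0467). It did not pass in edgeR (adjusted p = 0.359) or DESeq2 (adjusted p = 0.338). Over all tested genes limma called 0.881% higher and 1.31% lower, and nothing about the family is read from this 1 call.

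No gene next to the 5 on their chromosomes was called. Of 32 genes, the 3 nearest with a row on each side and those overlapping, 9 were tested and 0 were called in limma (1 at an unadjusted p under 0.05), edgeR or DESeq2. Dpf2, which encodes a subunit of BAF chromatin remodelling complexes and ends 2.37 kb from Tigd3, was at 220 ± 84.2 normalised counts in Val_LNA embryos and 349 ± 182 in Ctrl_LNA embryos (SD, n = 16 each; limma, adjusted p = 0.316). Slc25a45, 5.26 kb away on the other side, was detected in 1 embryo of each group. Cftr, next to Cttnbp2, was detected in 9 Val_LNA embryos and 11 Ctrl_LNA embryos, and Cenpe, 278 kb from Tacr3, was on in all 16 embryos of each group.

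The genes with the patterns most like each transcript were ranked by Spearman's rho over the 32 embryos after removal of the group means. The points share library and depth, and the values are given with no p. The highest value among the other 4 transcripts is printed beside them as a description only, since it is a maximum over 4 genes and theirs is a maximum over all tested genes. For Prl8a2 they were Ccl28 (0.683), Harbi1 (0.625) and Zfp653 (0.620), beside 0.537 with Cttnbp2, its nearest among the 5. For Tacr3 they were Isg20l2 (0.705), Itgam (0.687) and Fcgr2b (0.682), beside 0.430 with Tigd3. For Cttnbp2 they were Abca9 (0.698), Zfp560 (0.681) and Exph5 (0.658), beside 0.537 with Prl8a2. For Nxpe4 they were Iqub (0.678), Tmem8b (0.632) and Med17 (0.610), beside 0.351 with Tacr3. For Tigd3 they were Pklr (0.722), Sord (0.712) and Mical3 (0.662), beside 0.430 with Tacr3, and without Ctrl_LNA 48 those 3 genes had 0.581, 0.609 and 0.439. Of these 15 genes, Zfp560, a zinc finger gene, was called between the groups, at 485 ± 264 normalised counts in Val_LNA embryos and 84.0 ± 74.5 in Ctrl_LNA embryos (SD, n = 16 each; log2 difference 2.94 ± 0.49, limma, adjusted p = 0.00039).

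Markers of other cells that a single-embryo library could hold overlapped between the groups. The 12 listed cumulus and granulosa genes summed to 44.9 to 1216 normalised counts in Val_LNA embryos and 364 to 1505 in Ctrl_LNA embryos, and Fshr and Foxl2 were at 0 in every Ctrl_LNA embryo. The 7 sperm and spermatid genes in the table summed to 0 to 60.6 in Val_LNA embryos and 0 to 51.3 in Ctrl_LNA embryos. Tnp2 was at 0 in every Ctrl_LNA embryo. Their part in the on-off pattern was not tested.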

How the data were processed

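Single late 2-cell embryos (16 Val_LNA, 16 Ctrl_LNA) were profiled by poly(A) mRNA sequencing with template switching, 20 PCR cycles and tagmentation, per the labels' protocols. Bowtie2, STAR, SAMtools and DESeq2 with mm10 are named in the submitters' processing notes; the sources used here do not give roles, versions or annotation. The deposited signal is gene counts that the authors divided by DESeq size factors, per the file headers, and the deposited size factors are a ratio to a common scale. Multiplying them back gave whole reads for 1095136 of 1095136 values (100%), at most 0.0086 from a whole number. Recovered reads entered edgeR and DESeq2 as alternatives. Every column had its sample, and 34179 of 34223 identifiers were found in GENCODE M21 with version numbers ignored.

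The main test was limma (3.58.1, R 4.3.3, trend and robust) on log2(normalised count + 1) over 15559 genes with at least 10 in at least 8 embryos, adjusted by Benjamini-Hochberg over all of them and called at 0.05. limma, edgeR (4.0.16) and DESeq2 (1.42.0) were tested on simulated data. In low genes the difference in mean log2(normalised count + 1) can be smaller or larger than in other tools. For Tigd3 it was -4.61, against -6.91 in edgeR and -7.12 in DESeq2. For Prl8a2, Tacr3, Cttnbp2 and Nxpe4 it was larger than in either tool, as for Tacr3 (4.88, against 3.39 and 3.51). Correlations used permutation tests in scipy (1.17.1) and shares exact 95% intervals. Alternatives were other pseudocounts, scalings, filters, thresholds, tools, runs of library numbers and leaving out Ctrl_LNA 48.

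The members and lists were chosen with earlier results of these data known. Besides the 5, named genes were: for each member the 3 tested genes with the highest group-centred Spearman rho, model and clone names left out; per list up to 3 called genes, or else the 1 with the smallest p, and relatives of a member by level; the 3 nearest genes on each side and overlapping genes; and the 5 genes with the largest detection difference in each direction.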

Additional observations from a re-analysis of the deposited data

How the results depend on the processing

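No paired analysis was possible because the groups share no replicate numbers. The group difference kept its direction for all 5 transcripts under each of the 11 alternatives tried. The 5 were chosen by this contrast in the same values, so the alternatives show only how its size depends on processing. Prl8a2 moved by more than its spread to 2.99 with a pseudocount of 10, and Tigd3 to -2.80 and -2.10 with pseudocounts of 5 and 10, -6.91 in edgeR and -7.12 in DESeq2; Tigd3 fails the filter of 16 embryos, so it has no value there. The 137 higher and 204 lower calls became 29 and 163 in edgeR, 188 and 325 in DESeq2, 87 and 159 with no filter, 61 and 300 with embryos centred on their median gene, and 245 and 409 without Ctrl_LNA 48. Jrk kept its sign, with adjusted p up to 0.359 in edgeR, 0.338 in DESeq2 and 0.0862 with no filter. Calls between Ctrl_LNA runs were 14 in edgeR and 4 without Ctrl_LNA 48. In those runs Prl8a2 passed in edgeR (5.66) and Tacr3 without Ctrl_LNA 48 (4.18). Uncalled run differences changed sign for Cttnbp2 in Val_LNA embryos (-0.34 in edgeR) and for the group by run difference of Nxpe4 (-1.49 in edgeR, -0.32 without Ctrl_LNA 48).

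Detection depends on the threshold. At 50 or more counts, the share of Val_LNA embryos was 75.0% for Prl8a2, 68.8% for Cttnbp2, 68.8% for Nxpe4 and 0% for Tigd3, and the share of Ctrl_LNA embryos was 0% for Prl8a2, 25.0% for Tacr3, 6.25% for Cttnbp2, 6.25% for Nxpe4 and 50.0% for Tigd3. At 10 or more counts, Tigd3 was on in 0% of Val_LNA embryos, Prl8a2 in 12.5% and Nxpe4 in 25.0% of Ctrl_LNA embryos. In the upper runs alone, any-read detection was 100% for Cttnbp2 in Val_LNA embryos and 87.5% for Tacr3 in Ctrl_LNA embryos. In the lower runs it was 12.5% for Prl8a2 and 100% for Tigd3 in Ctrl_LNA embryos, and Tigd3 was detected in 100% of Ctrl_LNA embryos without Ctrl_LNA 48.

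Among the correlations of pairs, run centring without Ctrl_LNA 48 was added after the data were seen. For Prl8a2 and Tacr3 in Ctrl_LNA embryos significance was lost with rho (0.688), without the 2 farthest embryos (0.544) and with run centring (0.533, and 0.423 without Ctrl_LNA 48 as well). For Prl8a2 and Cttnbp2 in Ctrl_LNA embryos it was lost with rho (0.515), without the 2 farthest embryos (0.430) and with run centring without Ctrl_LNA 48 (0.639). Significance was gained in Val_LNA embryos with run centring for Prl8a2 and Cttnbp2 (0.716) and for Cttnbp2 and Tigd3 (-0.842), and in Ctrl_LNA embryos for Prl8a2 and Nxpe4 without the 2 farthest embryos (0.816) and for Tacr3 and Tigd3 with run centring (0.767). For Prl8a2 and Nxpe4 the 2 embryos left out were Ctrl_LNA 44 and 49, the only ones with Prl8a2 on. Prl8a2 was off in all that remained, at most 8.99 in Ctrl_LNA 47, so this value does not show joint switching. Uncalled pairs changed sign as follows. In Val_LNA embryos, without the 2 farthest embryos, r was 0.0799 for Prl8a2 and Tacr3, 0.0611 for Tacr3 and Cttnbp2, 0.256 for Tacr3 and Nxpe4, 0.201 for Cttnbp2 and Nxpe4 and -0.0395 for Nxpe4 and Tigd3. With rho the last 4 pairs had 0.0912, 0.115, 0.0882 and -0.107, and with run centring Prl8a2 and Tacr3 had 0.108. In Ctrl_LNA embryos Cttnbp2 had -0.104 with Nxpe4 without the 2 farthest embryos and -0.042 with Tigd3 with run centring without Ctrl_LNA 48.

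No correlation with an embryo-wide measure passed under either alternative. Without the 2 farthest embryos, signs changed in Val_LNA embryos for total reads with Prl8a2 (0.063), Cttnbp2 (0.035) and Tigd3 (-0.054) and for the zygotic minus maternal level with Nxpe4 (-0.339). In Ctrl_LNA embryos they changed for genes detected with Prl8a2 (-0.246), Tacr3 (-0.245), Cttnbp2 (-0.064) and Nxpe4 (-0.299), for total reads with Tacr3 (-0.016) and Cttnbp2 (-0.188), and for the zygotic minus maternal level with Nxpe4 (0.460). Without Ctrl_LNA 48, genes detected gave -0.292 with Prl8a2, -0.361 with Tacr3 and -0.291 with Nxpe4, and the zygotic minus maternal level gave 0.237 with Nxpe4 and 0.096 with Tigd3. The causes of these changes were not tested. Co-detection passed under no threshold. With values this near 0, a difference of a few reads can move an embryo between off and on.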
